A study of Drosophila melanogaster with 6 samples.

Results

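The mitochondrial ribosomal protein genes were taken as every gene whose symbol begins with mRpL (large subunit) or mRpS (small subunit). There were 72 such genes, 46 of the large and 26 of the small subunit, among the 13517 genes of the deposited table. RNA sequencing was done on muscle-enriched lysates of Drosophila melanogaster larvae, taken late in the third instar, each pooling 7 to 10 animals, in 2 groups of 3 biological replicates. Both groups carried Mhc-Gal4, a driver active in muscle cells and not in the other cells of the body wall. The knockdown group was Mhc-Gal4>UAS-tsrRNAi, with RNA interference directed at twinstar (tsr, the fly cofilin, which severs actin filaments). The control group was Mhc-Gal4>UAS-mCherryRNAi, with a construct against a fluorescent protein that flies do not encode. Larvae are given by the growth protocol and the series' design, although the tissue label of every sample says adult.

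Mitochondrial ribosomes translate the few proteins encoded by mitochondrial DNA, which are subunits of the respiratory chain and the ATP synthase. Their RNA comes from mitochondrial DNA, but their proteins come from nuclear genes, are made in the cytosol and are imported. Some of these proteins belong to families shared with bacterial ribosomes, and others are found only in mitochondria. In flight and body wall muscle, which hold many mitochondria, these ribosomes supply the respiratory chain. The question addressed here is whether the RNA of this gene set, and the balance between its subunits, differed when cofilin was knocked down in larval muscle.

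Expression was measured as scaled counts, the reads of a gene divided by a size factor that the authors set for each sample. Each sample had between 37138289 and 41900871 reads in genes. The tsr gene (FBgn0011726) had scaled counts of 39133, 29266 and 25816 in the controls and 6966, 7070 and 5035 in the knockdowns, in the order of replicates 1 to 3 used throughout. The knockdown mean was thus 20.2% of the control mean, a log2 fold change of -2.30 (SE 0.21, n = 3 per group, limma adjusted p = 0.00525). The exact two-sided permutation p was 0.1, the smallest that 3 against 3 allows. Of 28 sarcomere genes listed as muscle markers 27 were found, none at 0, and their summed scaled counts ran from 4372070 to 6296890 in the controls and from 7351230 to 10378600 in the knockdowns. Over all genes tested (log2 scale), pairs of knockdown libraries had correlations of 0.959 to 0.964. Among the controls, replicates 1 and 3 were the most similar pair, with a correlation of 0.951. Control replicate 2 was less similar to both, with correlations of 0.759 (replicate 1) and 0.813 (replicate 3).

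All 72 genes were expressed. Their mean scaled counts over the 6 samples ran from 119 to 1729, with a median of 415, and all passed the minimum mean of 10 that left 11720 genes for testing. The 72 summed to 59015, 26004 and 27421 scaled counts in control replicates 1, 2 and 3. In the knockdowns the sums were 34995, 34560 and 32591. The 3 knockdown sums lay close together and between the lower pair of controls and the high one, so the groups overlapped. The mean sum was 37480 ± 18663 (SD, n = 3) in the controls and 34049 ± 1281 (SD, n = 3) in the knockdowns. In bulk tissue, a lower share of the cells that express a gene and less of its RNA per cell cannot be told apart.

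No member passed the test between the groups. In the limma fit over all 11720 genes, at a Benjamini-Hochberg adjusted p under 0.05, 0 of 72 members were called, against 11.6% of all genes tested (4.58% higher and 7.02% lower in the knockdown). None had an unadjusted p under 0.05, where 29.1% of all genes did, and the adjusted p-values of the members ran from 0.295 to 0.998. The count tests on recovered reads also called 0 members, where edgeR called 9.89% and DESeq2 24.1% of all genes. In 0 members did the 3 controls and the 3 knockdowns separate without overlap, against 36.4% of all genes tested. The members' log2 fold changes (knockdown minus control, on log2(scaled count + 1)) ran from -0.60 to 0.48. Their median was -0.13, beside 0.06 over all genes tested, with 49 members below 0, against 46.1% of all genes tested, and 23 above.

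The errors of these fold changes were wide. Standard errors ran from 0.18 to 0.53, with a median of 0.38. The 95% interval of the fold change lay within a log2 change of 1 in either direction for 26 of the 72 members. For 37 members it reached -1 or lower, and for 15 it reached 1 or higher. In those members a change of that size lay within the error of these 6 libraries.

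**Figure D1:**
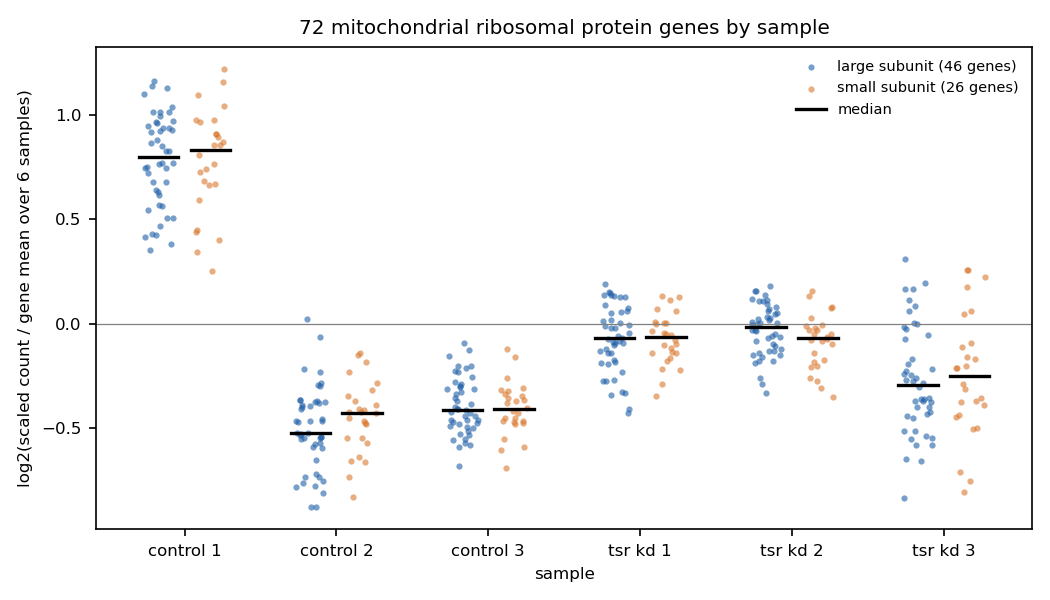
Scaled count of each of the 72 genes in each of the 6 samples, as log2 of its ratio to the gene's mean over the 6 samples; points are genes (blue large subunit, orange small subunit) and black bars are subunit medians. Control replicate 1 stands above the other 5 samples for both subunits, and control replicates 2 and 3 hold the lowest medians.

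A single control library stood apart from the other 5 across the gene set. Control replicate 1 was the highest of the 6 samples in 71 of 72 members, against 18.6% of all genes tested. It was at least 2 times the mean of control replicates 2 and 3 in 53 of 72 members, against 7.11% of all genes tested. The median excess was 2.35-fold, and it ran from 1.46-fold in mRpS5 to 3.44-fold in mRpS33. Over all genes tested the same ratio had a median of 0.927, and over the 6264 genes within the members' range of exon length it was 0.959. The lowest sample was control replicate 2 for 34 members, control replicate 3 for 21, knockdown replicate 3 for 16 and knockdown replicate 1 for 1.

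Within each group, libraries other than control replicate 1 lay close together for a given member. The median coefficient of variation of a member was 54.2% among the 3 controls, 10.4% among the 3 knockdowns and 6.54% between control replicates 2 and 3. Over all genes tested those medians were 24.7%, 16.5% and 17.5%. The excess in control replicate 1 was alike in both subunits, with medians of 2.34-fold for the large and 2.39-fold for the small. It was also alike in the 42 members that symbol numbers place in families shared with bacteria (2.36-fold) and in the 30 with higher numbers, most of which have no bacterial counterpart (2.34-fold). It was 2.51-fold over the 36 members with the shortest exon sequence and 2.23-fold over the 36 with the longest.

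Other features of control replicate 1, and marker sums of other tissues, are given as measured. Control replicate 1 had 12035 genes above 0, beside 13233 and 12511 in control replicates 2 and 3 and 13166 to 13258 in the knockdowns. Among the controls it had the lowest epidermis and blood cell marker sums, at 4069800 and 38113. Its fat body and neuron marker sums, 705558 and 10420, lay between those of the other controls. Its 6 salivary glue genes (6 of 6 listed were found, none at 0 in any library) summed to 112119 scaled counts, beside 47306 and 39.7 in control replicates 2 and 3 and 20.9 to 15164 in the knockdowns. The 8 fat body markers, all found and none at 0, summed to between 650042 and 1435180 in the controls and 1154940 and 1476770 in the knockdowns. These sums hide opposite changes, with 3 log2 fold changes above 0 and 5 below. On 6 samples limma called 1 higher and 1 lower, against 4.58% and 7.02% of all genes tested. Fbp1 had 97304, 405977 and 113193 in the controls and 8129, 2198 and 2424 in the knockdowns. Lsp1gamma had 210606, 283317 and 164433 in the controls and 522202, 457022 and 521512 in the knockdowns. The 8 epidermis markers, with 1 of them at 0 in control replicate 3 and in knockdown replicate 3, summed to between 4069800 and 4940960 in the controls and 1278250 and 2116220 in the knockdowns. The 8 neuron markers, none at 0, summed to between 7433 and 11127 in the controls and 20566 and 23071 in the knockdowns. The 6 blood cell markers, none at 0, summed to between 38113 and 45222 in the controls and 36375 and 55317 in the knockdowns. Of these 6, 2 had log2 fold changes above 0 and 4 below, and 2 were called lower, against 7.02% of all genes tested. The 7 gut markers, 1 of them at 0 in control replicates 2 and 3, ran from 7892 to 20743 and from 4869.6 to 18987. The median of the 6 gut markers tested was highest in control replicate 1, at 7.31 on the log2(scaled count + 1) scale, beside 5.52 and 6.06 in the other controls and 3.97 to 6.13 in the knockdowns. The sum of the 7 gut markers went the other way among the controls, at 7892 in control replicate 1, beside 8286 and 20743. The part of these other cells in the members' values was not tested.

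The ratio of large to small subunit RNA overlapped between the groups. Summed scaled counts of the 46 large subunit genes over those of the 26 small subunit genes gave ratios of 1.57, 1.48 and 1.53 in control replicates 1 to 3. In knockdown replicates 1 to 3 the ratios were 1.52, 1.57 and 1.46. Both groups covered nearly the same range, with means of 1.53 ± 0.043 (SD, n = 3) in the controls and 1.52 ± 0.055 (SD, n = 3) in the knockdowns. The log2 difference of -0.01 between the groups was smaller than the spread within either (SD 0.041 and 0.053), and its sign depended on how members were weighted. Control replicate 1, which had more than 2 times the summed level of the other controls, had a ratio inside the range of the knockdowns. The median log2 fold change was -0.10 over the large subunit and -0.15 over the small.

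The same counts were made without control replicate 1. Leaving out each library in turn was planned, and this was the only omission of 1 library that gave any call among the members. With 2 controls against 3 knockdowns, limma called 6 of 72 members higher and 0 lower, against 5.3% and 5% of all genes tested. The median log2 fold change of the 72 turned from -0.13 to 0.31 (large 0.33, small 0.28), beside 0.04 over all genes tested. Control replicate 1 exceeded the other controls in every member, so leaving it out raises each fold change by construction. This omission was carried into the gene paragraphs below after the members' values were seen, so its adjusted p-values are not independent of that choice. This fit also keeps control replicate 2, the control least similar to the others over all genes tested, as 1 of its 2 controls. Leaving out control replicate 2 instead gave a member median of -0.35, beside 0.07 over all genes tested. In that fit 13 of 72 members lay above 0. Without control replicate 1, 64 of 72 members lay above 0, against 52.9% of all genes tested. Of the 72, 23 had an unadjusted limma p under 0.05, near the share of 30.2% over all genes tested. All 3 knockdowns exceeded both control replicates 2 and 3 in 41 of 72 members, against 23.7% of all genes tested, and in 40 of these 72 the knockdowns lay between that pair and control replicate 1. The 6 calls changed with the scaling. TMM gave 5 higher, against 5.68% of all genes tested, upper-quartile scaling 8, against 6.42%, and scaling to equal totals 1 (mRpS22), against 6.02%. Scaling by the sarcomere genes gave 0 higher, against 2.53%, and 3 lower (mRpL22, mRpL52 and mRpS7), against 33.9%. On recovered reads edgeR called 7 higher, the same 6 among them, against 4.54% of all genes tested. DESeq2 called 14, again with all 6, against 13% of all genes tested.

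**Figure D2:**
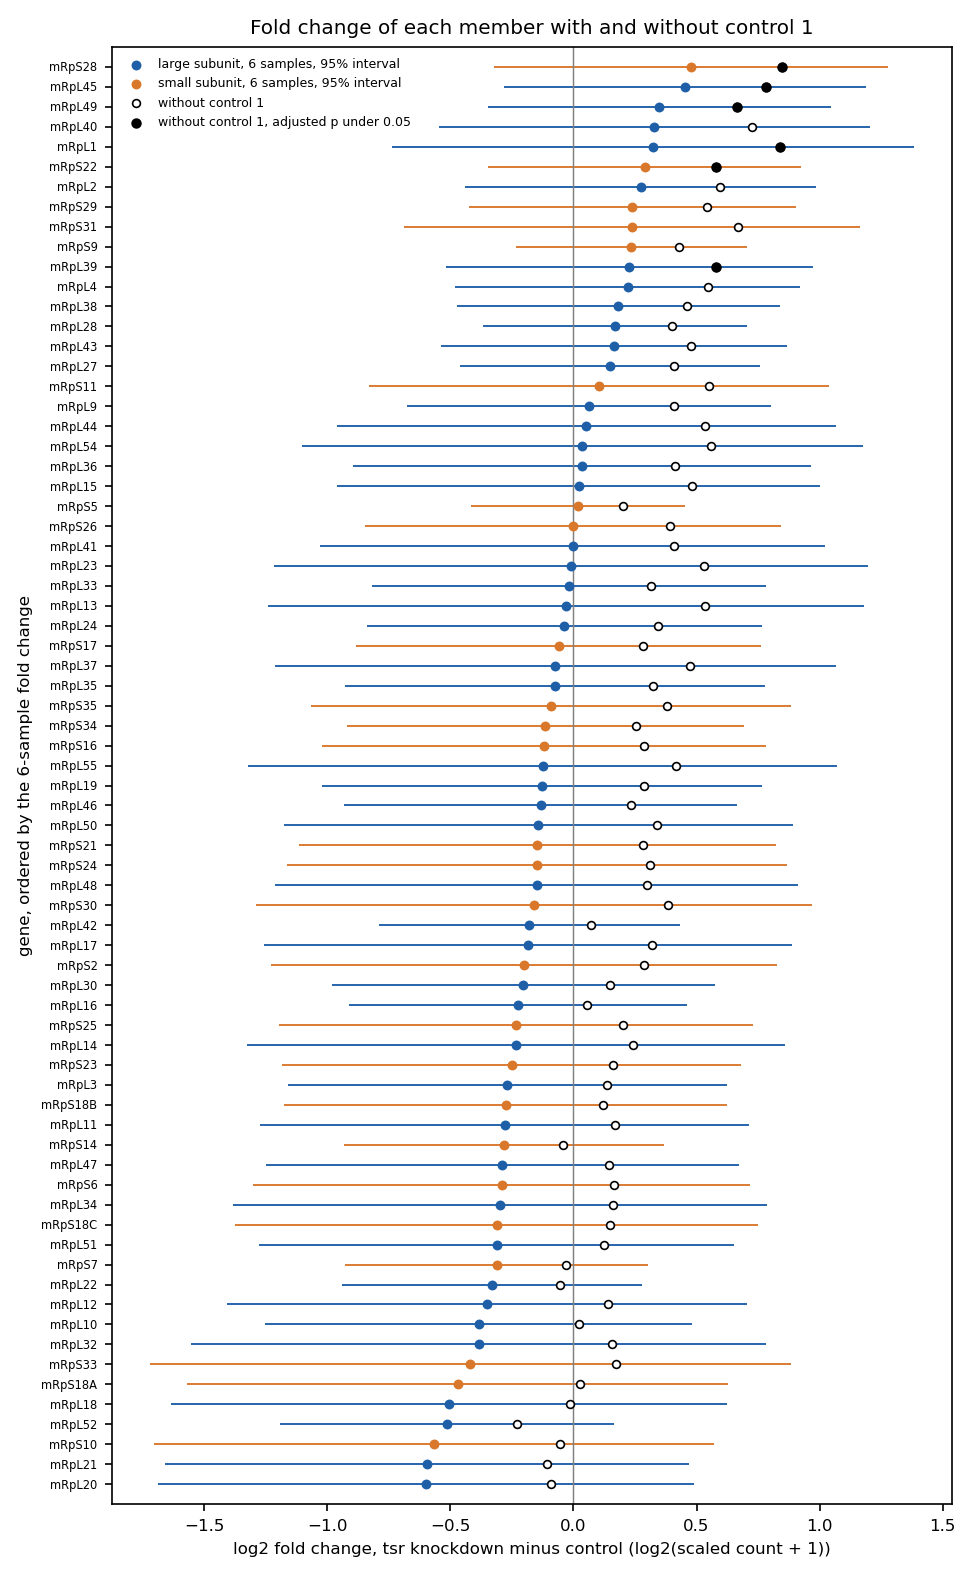
log2 fold change (tsr knockdown minus control, log2(scaled count + 1)) of each of the 72 genes; coloured points with bars are the fit on 6 samples with 95% intervals, and open or filled black points are the fit without control replicate 1, filled where the adjusted p was under 0.05. On 6 samples every interval crosses 0. Without control replicate 1, which exceeds the other controls in every gene, all points move to the right by construction. Of these, 6 pass the test.

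Among large subunit proteins, mRpL1, mRpL10, mRpL11 and mRpL12 form the mobile stalks. The L1 stalk handles the tRNA that leaves the ribosome, and L10 and L12, on a base that includes L11, form the stalk that recruits elongation factors. The gene mRpL1 (FBgn0037566, 3R, 8301440 to 8302770, plus strand, dm6) had scaled counts of 1089, 349.8 and 399.9 in the controls and 642, 696 and 670.2 in the knockdowns. The knockdowns thus stood well above control replicates 2 and 3 and well below control replicate 1. Its log2 fold change was 0.32 (SE 0.43, limma adjusted p = 0.647) on 6 samples and 0.84 (SE 0.13, adjusted p = 0.0314) without control replicate 1. No other stalk gene was called in either fit.

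For mRpL10 the scaled counts were 796, 342 and 337 in the controls and 347, 349 and 339 in the knockdowns. Apart from control replicate 1, its 5 libraries were nearly level, and the log2 fold change went from -0.38 (SE 0.36) on 6 samples to 0.02 (SE 0.14) on 5. For mRpL12 the values were 1318, 433 and 523 in the controls and 571, 584 and 431 in the knockdowns, with the knockdowns on both sides of the lower controls. In mammals this protein has also been described as a partner of the mitochondrial RNA polymerase. For mRpL11 they were 475, 170.4 and 203 in the controls and 216, 227 and 187 in the knockdowns. The log2 fold changes of mRpL11 and mRpL12 were -0.28 and -0.35 on 6 samples, and 0.17 and 0.14 on 5.

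Proteins at the exit of the nascent peptide tunnel include mRpL45, which in mammals lies where the ribosome meets the inner membrane, and mRpL47. The gene mRpL45 (FBgn0263863, 3R, 22618492 to 22619826, plus strand) had scaled counts of 1174, 531 and 651 in the controls and 991, 939 and 1118 in the knockdowns. All 3 knockdowns lay nearer to control replicate 1 than to the lower pair. The log2 fold change was 0.45 (SE 0.30, limma adjusted p = 0.39) on 6 samples, the highest of the large subunit, and 0.78 (SE 0.15, adjusted p = 0.0437) on 5. For mRpL47 the values were 851, 341 and 348 in the controls and 419, 429.8 and 308 in the knockdowns, and the fold change went from -0.29 (SE 0.39) to 0.15 (SE 0.21). The 6 listed tunnel exit genes (mRpL17, mRpL22, mRpL23, mRpL24, mRpL45 and mRpL47) had a median of -0.11 on 6 samples and 0.33 on 5.

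The other large subunit genes called without control replicate 1, mRpL39 and mRpL49, belong to families found only in mitochondria. For mRpL49 (FBgn0030433, X, 12907105 to 12907942, plus strand) the scaled counts were 586, 306 and 299.7 in the controls and 481, 468 and 492 in the knockdowns, a spread of 12 (SD) around a knockdown mean of 481. Its log2 fold change was 0.35 (SE 0.29, limma adjusted p = 0.465) on 6 samples and 0.66 (SE 0.14, adjusted p = 0.0488) on 5. For mRpL39 (FBgn0036462, 3L, 14997981 to 14999666, minus strand), which was named only after its value was seen, they were 1238, 565 and 625 in the controls and 879.8, 868 and 919 in the knockdowns. The log2 fold change was 0.23 (SE 0.31, limma adjusted p = 0.649) on 6 samples and 0.58 (SE 0.11, adjusted p = 0.0444) on 5. In both genes the 3 knockdowns lay close together, between the lower controls and control replicate 1.

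At the other end, mRpL20, mRpL21 and mRpL52 had the lowest fold changes of the large subunit. For mRpL20 (FBgn0036335, 3L, 13017149 to 13017867, minus strand), a family shared with bacteria, the scaled counts were 691, 224 and 259 in the controls and 230.4, 253 and 197 in the knockdowns. Of the knockdowns 1 lay below the lower pair of controls and the others between that pair, and a log2 fold change of -0.60 (SE 0.45, limma adjusted p = 0.427) became -0.09 (SE 0.21) on 5 samples. For mRpL21 the values were 614, 203 and 244 in the controls and 221, 223 and 178 in the knockdowns. For mRpL52 (FBgn0033208, 2R, 7673721 to 7674400, minus strand) they were 681, 407 and 348 in the controls and 319, 354 and 293 in the knockdowns. This gene had the lowest adjusted p of all members on 6 samples (log2 fold change -0.51, SE 0.28, limma adjusted p = 0.295), and the lowest fold change of all members on 5, at -0.23 (SE 0.18, adjusted p = 0.488).

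mRpL44, which carries a fold of the RNase III family, had scaled counts of 1037, 336 and 429.7 in the controls and 545, 553 and 555 in the knockdowns. The knockdown SD was 5.56 against 380.4 in the controls, and the log2 fold change was 0.05 (SE 0.42) on 6 samples and 0.53 (SE 0.16, limma adjusted p = 0.102) on 5. For mRpL13 the values were 607, 164 and 214 in the controls and 248, 311 and 259 in the knockdowns, and for mRpL37 they were 1279, 362 and 462 and then 596, 572 and 538. These had the widest ratios of highest to lowest control in the large subunit, at 3.71 and 3.53, and log2 fold changes of -0.03 and -0.07. mRpL40 had 423, 174 and 198 in the controls and 326, 309.5 and 286 in the knockdowns, with log2 fold changes of 0.33 (SE 0.36) on 6 samples and 0.72 (SE 0.18, limma adjusted p = 0.0738) on 5.

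In the small subunit, mRpS28 had the highest fold change of all 72. Its mammalian counterpart is related to a bacterial protein of the small subunit that binds mRNA. mRpS28 (FBgn0034361, 2R, 18614210 to 18615018, minus strand) had scaled counts of 568, 265 and 260.0 in the controls and 453, 467 and 501 in the knockdowns. As with mRpL1, the knockdowns formed a tight group between the lower controls and control replicate 1. The log2 fold change was 0.48 (SE 0.33, limma adjusted p = 0.399) on 6 samples and 0.85 (SE 0.14, adjusted p = 0.0344) on 5. For mRpS22 (FBgn0039555, 3R, 27916908 to 27918248, plus strand), named after its value was seen, the values were 1532, 832 and 840.4 in the controls and 1269, 1138 and 1355 in the knockdowns. Variants of its human counterpart cause a mitochondrial disease. Its log2 fold change was 0.29 (SE 0.26, limma adjusted p = 0.498) on 6 samples and 0.58 (SE 0.12, adjusted p = 0.0484) on 5.

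mRpS5, mRpS7 and mRpS9 belong to families of the bacterial small subunit, whose members lie at the entry of the mRNA, in the head and next to the bound tRNA. mRpS5 (FBgn0287187, 3L, 24537236 to 24543534, plus strand) had scaled counts of 1628, 1156 and 1074 in the controls and 1289.7, 1212 and 1340.3 in the knockdowns. It had the smallest excess of control replicate 1 and the smallest standard error, with a log2 fold change of 0.02 (SE 0.18, 95% interval -0.42 to 0.45). For mRpS7 the values were 1464, 805 and 818 in the controls and 831, 809 and 748 in the knockdowns, which were level with the lower pair of controls. mRpS9 (FBgn0037529, 3R, 7889277 to 7902667, minus strand) was the one member in which control replicate 1 was not the highest library. It had 2059.5, 1362 and 1383 in the controls and 1805, 1695 and 2069 in the knockdowns. Its log2 fold changes were 0.24 (SE 0.19, limma adjusted p = 0.463) on 6 samples and 0.43 (SE 0.12, adjusted p = 0.0866) on 5, but 325 of its exon bases are shared with ArgRS-m on the opposite strand.

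The fly has 3 members of the S18 family, mRpS18A, mRpS18B and mRpS18C. In mammals the proteins named S18A and S30 were found in the large subunit, although their symbols put them in the small one. mRpS18A had scaled counts of 689, 241 and 248 in the controls and 293, 267 and 197 in the knockdowns, and a log2 fold change of -0.47 (SE 0.45). mRpS18B had 601, 267 and 260.0 in the controls and 311, 321 and 235 in the knockdowns, and a log2 fold change of -0.28 (SE 0.37). mRpS18C had 339, 147 and 115 in the controls and 169, 139.6 and 127 in the knockdowns, and a log2 fold change of -0.31 (SE 0.44). In each of the 3 paralogs control replicate 1 was the highest library, and without it the log2 fold changes were 0.03, 0.12 and 0.15.

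mRpS30, with the highest value of any member in any library, had scaled counts of 2892, 845 and 1026 in the controls and 1355, 1222 and 1086 in the knockdowns. The log2 fold change was -0.16 (SE 0.46) on 6 samples and 0.38 (SE 0.15) on 5. mRpS29, a GTP-binding protein known in mammals as DAP3, had 1089, 584 and 576 in the controls and 875, 763 and 902 in the knockdowns. It came just short of the threshold without control replicate 1 (log2 fold change 0.54, SE 0.13, limma adjusted p = 0.0645). mRpS35 had 936, 344 and 362 in the controls and 469, 471 and 438 in the knockdowns, with log2 fold changes of -0.09 (SE 0.40) and 0.38 (SE 0.14). All 3 knockdowns of each of these genes exceeded both lower controls.

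mRpS10 and mRpS33 did not share that order. mRpS10 (FBgn0038307, 3R, 15229665 to 15230516, plus strand), which belongs to a bacterial family of the subunit head, had scaled counts of 819, 266 and 295 in the controls and 289, 323 and 210.2 in the knockdowns. Its log2 fold change of -0.57 (SE 0.47, limma adjusted p = 0.465), the lowest of the small subunit, became -0.05 (SE 0.25) on 5 samples. mRpS33 had 501, 137 and 154 in the controls and 186, 186 and 128 in the knockdowns. Its SE of 0.53 was the widest of the 72, at a log2 fold change of -0.42.

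The exon sequence of a gene was joined over all its transcripts, and bases shared with other genes were kept, which can shift these ranks. Levels between genes were compared per kb of exon sequence, with the mean scaled count over all 6 samples. They ran from 165 per kb in mRpL21 to 1422 per kb in mRpL28, with medians of 503 in the large subunit and 471 in the small. The highest after mRpL28 in the large subunit was mRpL30, at 900.2 per kb, ahead of mRpL42 at 884 per kb (without control replicate 1 their order was reversed, at 778 and 799 per kb), and the highest in the small subunit were mRpS9 (1337 per kb) and mRpS7 (995 per kb). mRpL28 had scaled counts of 2125, 1368 and 1263 in the controls and 1770.5, 1548 and 1906 in the knockdowns, and a log2 fold change of 0.17 (SE 0.22). mRpL30 had 1051, 479 and 536 in the controls and 577, 627 and 489 in the knockdowns, and a log2 fold change of -0.20 (SE 0.32). The lowest after mRpL21 were mRpS14 (229 per kb) and mRpL48 (256 per kb), and mRpS18C (327 per kb) was the second lowest of the small subunit. mRpS14 had scaled counts of 276, 166 and 168 in the controls and 149.6, 174 and 164 in the knockdowns. mRpL48 had 372, 139 and 153 in the controls and 185, 225 and 139 in the knockdowns. Neither the abundant nor the rare genes separated the groups.

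**Figure D3:**
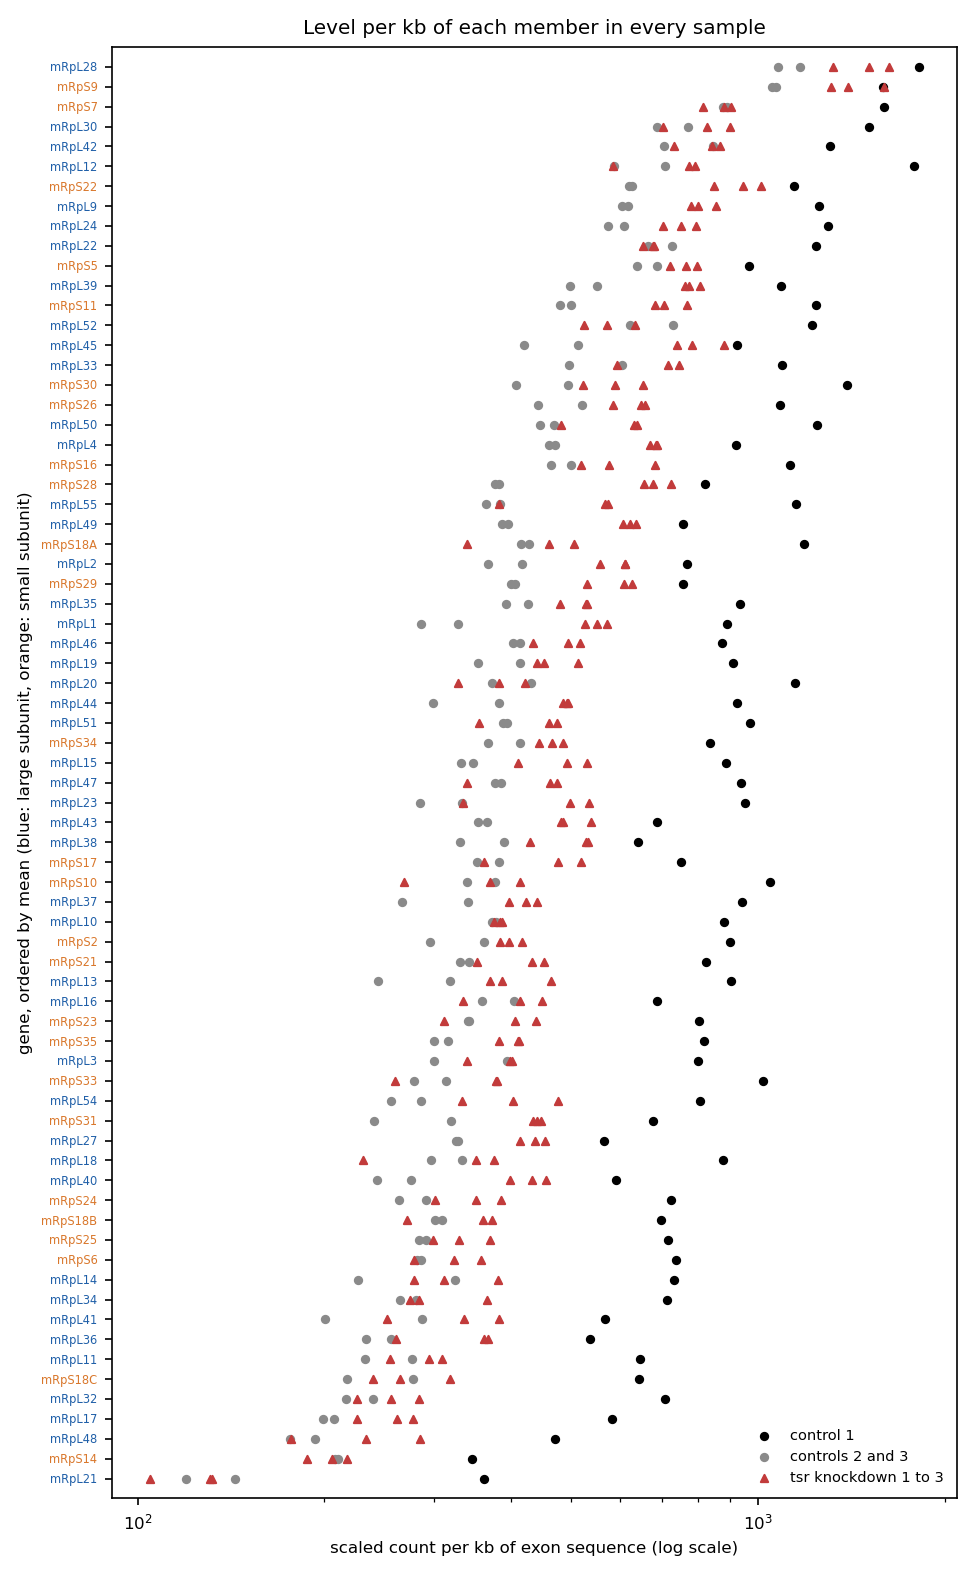
Scaled count per kb of exon sequence (log axis) of each of the 72 genes in each sample, ordered by mean; circles are controls (black for replicate 1) and red triangles are the 3 knockdowns. Levels span 165 per kb (mRpL21) to 1422 per kb (mRpL28) by mean, and the black circle lies to the right of the other samples in 71 of 72 genes.

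The genes lie on all the large chromosome arms, with 12 on 2L, 11 on 2R, 17 on 3L, 21 on 3R and 11 on X. They are short, with a median of 783 bases of exon sequence and a range of 327 to 2078. Exon bases of 42 of the 72 overlap another annotated gene, mostly at the ends of neighbours on opposite strands. Whether counting used strand is not given in the sources used here, so the values of these genes are uncertain. Among the named genes they include mRpL1, mRpL10, mRpL11, mRpL28, mRpL30, mRpL39, mRpL44, mRpL47, mRpL48, mRpS18C, mRpS22, mRpS28, mRpS29 and mRpS33, beside mRpS9. mRpL13 and mRpS14 share 236 and 285 exon bases with neighbours, in both cases including a gene on the same strand. The excess of control replicate 1 was 2 times or more in 76.2% of the members with such overlap and in 70% of those without.

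Other genes of mitochondrial translation were read in the same fit. tko, whose product is the mitochondrial S12 and whose mutants have seizures after mechanical shock, had scaled counts of 551, 247 and 210.3 in the controls and 291, 302 and 199 in the knockdowns. bonsai, which encodes the mitochondrial S15, had 1435, 447 and 467 in the controls and 617, 584 and 499 in the knockdowns. Both genes, whose symbols fall outside the naming rule, had control replicate 1 as their highest library, at 2.41 and 3.14 times the mean of the other controls, and log2 fold changes of -0.24 (SE 0.41 and 0.47). Of 9 translation factors listed 8 were found, with 0 called on 6 samples (1 at an unadjusted p under 0.05), a median log2 fold change of -0.19 and an excess of control replicate 1 of 1.95-fold. The list of mitochondrial aminoacyl-tRNA synthetases held 16 genes, with Slimp, which lacks the symbol form of the others, added by name. Of these 16, 0 were called (0 at an unadjusted p under 0.05) and 0 had an excess of 2 times or more. Their medians were -0.10 and 1.42-fold. Of 10 genes of mitochondrial DNA maintenance and transcription that were found among 17 symbols listed, 0 were called (1 at an unadjusted p under 0.05), with medians of 0.03 and 1.49-fold.

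Without control replicate 1, mEFTu1, the elongation factor that delivers tRNA, and mtRNApol, the mitochondrial RNA polymerase, were the members of those 3 lists that passed the test. mEFTu1 had scaled counts of 4558, 1651 and 1878 in the controls and 2852, 2680.0 and 2768 in the knockdowns. Its log2 fold change was 0.19 (SE 0.38) on 6 samples and 0.65 (SE 0.10, limma adjusted p = 0.0286) on 5, the same arrangement as in mRpL1. mtRNApol had 745, 409 and 386 in the controls and 957, 810.1 and 1008 in the knockdowns. Here all 3 knockdowns exceeded all 3 controls, with log2 fold changes of 0.91 (SE 0.28, limma adjusted p = 0.0892) on 6 samples and 1.21 (SE 0.15, adjusted p = 0.0209) on 5.

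The lists around the mitochondrial ribosome differed in these values. Over all genes tested, limma called 4.58% higher and 7.02% lower on 6 samples, and 5.3% and 5% on 5. On 6 samples 29.1% of all genes tested had an unadjusted limma p under 0.05. The 76 tested nuclear genes of the respiratory chain had a median log2 fold change of 0.34 on 6 samples, and 0.53 on 5, where 22 were called higher and 0 lower. On 6 samples 12 of the 76 had an unadjusted p under 0.05 and 1 was called higher and 0 lower: RFeSP, the Rieske subunit of complex III (log2 fold change 0.76, SE 0.17, limma adjusted p = 0.0391). Their median excess in control replicate 1 was 1.48-fold. The 14 import genes had medians of -0.13 and 0.11 with 0 calls in either fit (0 at an unadjusted p under 0.05 on 6 samples). The 89 tested genes with symbols of cytosolic ribosomal proteins, genes named as -like included, had a median of 0.48 on 6 samples. Of these, 4 were called higher (RpL22, RpL24-like, RpL26 and RpL35A) and 48 had an unadjusted p under 0.05. In 50 of the 89 the groups did not overlap, against 36.4% of all genes tested. Of the 89, 88 lay above 0 and 1 below, where 46.1% of all genes tested lay below. The median was 0.61 on 5 samples, with RpS2 and RpS20 called higher. They had an excess in control replicate 1 of 1.26-fold. The 36 proteasome genes, with a median of -1.13, had 31 called lower on 6 samples (31 at an unadjusted p under 0.05) and 30 on 5, and control replicate 1 was at 0.927 times the other controls. No difference between these lists was tested, and the genes named in this paragraph were picked out after their values were seen.

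**Figure D4:**
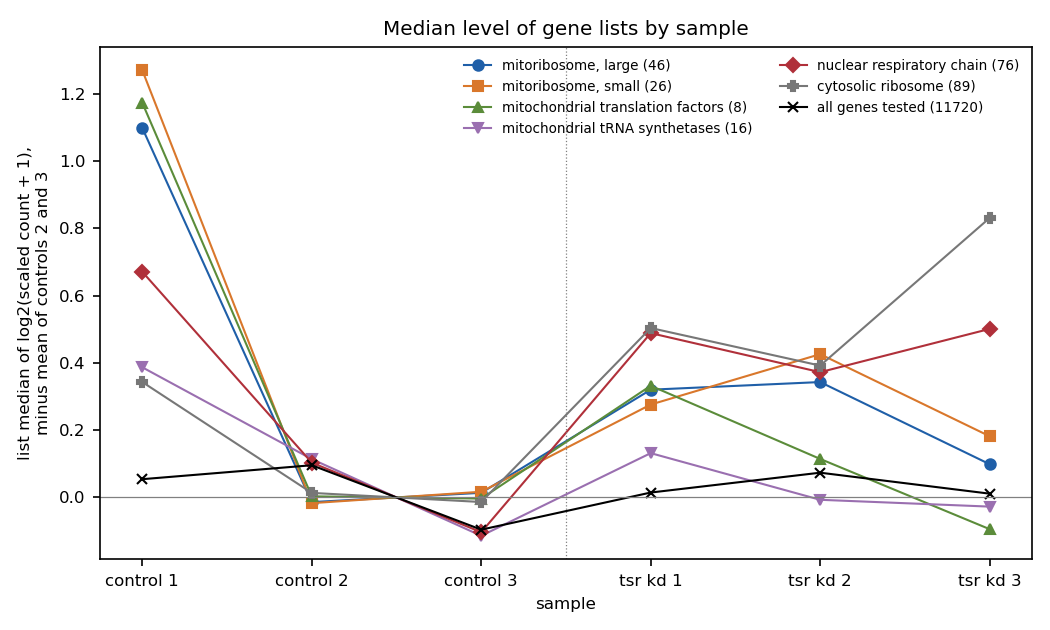
Median of log2(scaled count + 1) of each gene list in each of the 6 samples, minus the mean of its values in control replicates 2 and 3; lines join the medians of one list, with the number of genes tested in the legend. The mitochondrial ribosomal lists peak in control replicate 1 and lie between 0 and that peak in the knockdowns.

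The scaling of the samples bears on these readings. When samples were scaled to the median of the sarcomere genes, which are themselves higher in the knockdown libraries in sum, the median over all genes tested fell to -0.59 and that of the 72 members to -0.78. Under that scaling 6 members (mRpL10, mRpL22, mRpL42, mRpL52, mRpS5 and mRpS7) were called lower, against 26.7% of all genes tested, and 0 were called higher, against 1.85%. A scaling moves all genes of a sample alike, so it leaves the members' median relative to all genes, -0.19 on 6 samples and 0.26 without control replicate 1, in place. On recovered reads without control replicate 1 that difference was 0.42 by edgeR and 0.43 by DESeq2.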

How the data were processed

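Per the submitters' processing notes, STAR 2.5.0a, Picard and HTSeq 0.5.3 were used with the dm6 genome; per the labels' protocols, Trizol was used for extraction and a SMARTer amplification kit for the libraries, in a PE50 run. The annotation release and strand setting are not given in the sources used here. The authors deposited 1 table whose values are a signal: read counts per gene divided by a size factor per sample (0.861 to 1.11). After multiplication by that factor, all values (100%) came within 0.01 of whole reads, which were thus recovered; for knockdown replicate 1 the value of 1 read was 0.997, close to 1. Reads in genes were 37138289 to 41900871 per sample. Rows that name no gene (19.4% to 27.0% of all reads) were left out. Counting intervals were not used, since amplified reads without molecular identifiers are not independent molecules.

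Samples were grouped by title. Genes with a mean of at least 10 were tested with limma 3.58.1 (R 4.3.3; trended variance) on log2(scaled count + 1), with Benjamini-Hochberg adjustment over 11720 genes and a threshold of 0.05. edgeR 4.0.16 (quasi-likelihood) and DESeq2 1.42.0 were run on recovered reads; edgeR called 380 genes higher and 779 lower. Fold changes on this scale understate changes of low genes. Symbols, exon lengths and dm6 coordinates came from an Ensembl annotation, in which all 72 member names matched; 13478 of 13517 genes matched the gene name table, and 5 date-like symbols were restored. Scripts were tested on simulated data. Named genes were those with the largest fold changes in each direction, the extremes of level per kb and of control spread, and a list fixed by role. Gene members and lists were chosen with earlier results of these data known. Alternatives were the pseudocount, the filter, the scaling, the test, a replicate block and leaving out each library. Promoter motifs were planned but not analysed here.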

Additional observations from a re-analysis of the deposited data

How the results depend on the processing

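The counts of members called (0 higher, 0 lower) held under pseudocounts of 0.5 and 5, no filter, a minimum mean of 50, TMM, upper-quartile, equal-total, member-list and respiratory-chain scaling, edgeR and DESeq2; sarcomere scaling called 6 lower, with medians of -0.78 (large -0.75, small -0.80). Member-list and respiratory-chain scaling, alone or without control replicate 1, were added after seeing the data; member-list scaling removes by construction any change the members share. The large minus small difference changed sign with median log2 values (0.0166) and equal weight per member (0.0214). Over all genes, calls higher and lower were 537 and 823; sarcomere scaling gave 217 and 3125, DESeq2 1258 and 1569, member-list scaling 62 and 67, and respiratory-chain scaling 144 and 323.

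The fit with the replicate number as a block called 0 members and 24 genes higher and 88 lower of all; samples of the same number correlated at -0.46, -0.03 and 0.19 in their deviations from the group means, so the numbers do not pair the samples.

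Sarcomere scaling turned mRpL1 (-0.33), mRpL28 (-0.49), mRpL40 (-0.33), mRpL44 (-0.60), mRpL45 (-0.20), mRpL49 (-0.31), mRpS28 (-0.18), mRpS29 (-0.42), mRpS5 (-0.64) and mRpS9 (-0.42) below 0. Respiratory-chain scaling did so for mRpL28 (-0.0607), mRpL44 (-0.18) and mRpS5 (-0.21), edgeR for mRpL44 (-0.15) and mRpS5 (-0.0291), DESeq2 for mRpL44 (-0.14) and mRpS5 (-0.0131), and TMM for mRpS5 (-0.0122). Upper-quartile scaling turned mRpL13 (0.0640), mRpL37 (0.0190) and mRpS35 (0.0033) above 0, and member-list scaling mRpL13 (0.0396).

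Leaving out each library in turn gave 0 to 6 members called higher and 0 lower, 41 to 2426 genes called higher and 143 to 921 lower over all, and medians of -0.35 to 0.31 for the members, -0.37 to 0.33 for the large and -0.37 to 0.28 for the small subunit; the large minus small difference ran from -0.0368 to 0.0159. The 6 calls came without control replicate 1, the 2426 without control replicate 2, and the 41 and 143 without knockdown replicate 1. Named members whose sign or call changed ran over these ranges: mRpL1 0.02 to 0.84, mRpL10 -0.59 to 0.0242, mRpL11 -0.57 to 0.17, mRpL12 -0.66 to 0.14, mRpL13 -0.41 to 0.53, mRpL30 -0.42 to 0.15, mRpL37 -0.44 to 0.47, mRpL44 -0.28 to 0.53, mRpL45 0.21 to 0.78, mRpL47 -0.51 to 0.15, mRpL48 -0.41 to 0.30, mRpL49 0.18 to 0.66, mRpS18A -0.73 to 0.0268, mRpS18B -0.48 to 0.12, mRpS18C -0.63 to 0.15, mRpS28 0.29 to 0.85, mRpS30 -0.50 to 0.38, mRpS33 -0.76 to 0.17, mRpS35 -0.34 to 0.38, mRpS5 -0.10 to 0.20. For tsr the range was -2.43 to -2.13.

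Without control replicate 1 (6 members higher, 0 lower, median 0.31), DESeq2 called 14 higher and equal-total scaling 1; member-list, respiratory-chain and sarcomere scaling called 0 higher, and sarcomere scaling 3 lower. The medians under these 3 scalings were -0.0219, -0.15 and -0.47; upper-quartile scaling gave 0.40 and edgeR 0.44. Sarcomere scaling put mRpL39 at -0.20, mRpL45 at -0.000321, mRpL49 at -0.12 and mRpS22 at -0.20. The cause was not tested.

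With 3 libraries per group the members' 95% intervals reached as low as -1.72 (mRpS33) and as high as 1.38 (mRpL1). Moderate changes of single members could thus not be seen. The members' median standard error was 0.38 with control replicate 1 and 0.18 without it.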
